A study of Homo sapiens with 12 samples.

Results

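The genes of the autophagy machinery were followed with and without DMAG in the human erythroleukaemia line HEL, as the labels name it. DMAG is a glucoside of dimethylated ellagic acid from Sanguisorba, and the study set out to follow growth inhibition and megakaryocytic differentiation under it. The set holds 35 genes taken by symbol from the mRNA table, which lists 19659 genes, and all 35 symbols were found. They were chosen by their known roles in forming and loading the autophagosome, but with earlier results of these data known. The treated cells had 40 µg/ml DMAG for 3 days. Of the control cells, grown in the same RPMI medium with fetal bovine serum, the labels record no dose, day or vehicle of their own. The treatment text is the same for all samples, and the groups come from the sample titles. RNA depleted of ribosomal RNA was sequenced from 3 control and 3 DMAG samples. Levels are in FPKM, which corrects fragment numbers for the length of the transcript and the size of the library, and are summed over the transcripts of a gene. Means are given with SD and n = 3 per group, and gene positions are those of GRCh38.

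Autophagy encloses cytoplasm in a double membrane, the autophagosome, and delivers it to the lysosome for digestion. A kinase complex starts the process, a lipid kinase complex marks the membrane, transfer proteins feed it with lipid, and 2 ubiquitin-like conjugation systems attach proteins of the LC3 and GABARAP family to it. Cargo receptors then tie selected cargo to these proteins. In blood cells the pathway is known for clearing mitochondria during red cell maturation and for the upkeep of stem cells. Only mRNA was measured, not protein, LC3 lipidation or the flow of cargo to the lysosome.

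Markers of the labelled cell type were checked first. Of 10 megakaryocyte genes 9 averaged less than 0.5 FPKM, as did 8 of 13 erythroid genes. The megakaryocyte genes summed to between 1.04 and 1.19 FPKM in controls and between 1.01 and 1.77 FPKM with DMAG. The erythroid genes summed to between 3.98 and 4.79 FPKM in controls and to at most 4.96 FPKM in DMAG replicates 1 and 2, but to 1952 FPKM in DMAG replicate 3. The 7 granulocyte markers summed to between 2467 and 2601 FPKM in controls and between 1679 and 1904 FPKM with DMAG, and the 7 monocyte markers to between 171 and 176 FPKM and between 438 and 488 FPKM. Most of the monocyte sum was 1 gene, LYZ, at 168 ± 2.61 FPKM in controls and 444 ± 26.0 FPKM with DMAG. Of the granulocyte markers 3 rose and 4 fell, and of the monocyte markers 3 rose, 1 fell and 3 lay below the level tested. Lymphocyte markers summed to between 7.79 and 8.57 FPKM over the 6 libraries, and fibroblast and epithelial markers to at most 0.181 FPKM. For HEL, an erythroleukaemia line, these levels go against the label: granulocyte markers were high and most erythroid and megakaryocyte markers were near 0. The cells are called HEL here only as labelled. The part of any of these markers in the changes of autophagy genes was not tested. In bulk RNA, fewer cells of a type and less RNA per cell cannot be told apart. DMAG replicate 3 stood apart in the erythroid genes, with the beta-globin gene HBB at 1367 FPKM against at most 0.0731 FPKM elsewhere, so counts are also given without it.

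With DMAG, more autophagy genes were higher than lower. Of the 32 members that averaged at least 0.5 FPKM, 15 rose, 3 fell and 14 did not pass (limma, adjusted p under 0.05). Among all 10394 genes tested, 22.4% rose and 26.1% fell, 48.6% in either direction. The median log2 change of the members was 0.15, against -0.01 over all genes, with 25 of 32 members above 0. Without DMAG replicate 3 there were 14 members higher and 3 lower, and 2029 genes higher and 2393 lower of the 10357 tested. The changes were small: the widest were those of WIPI1, 1.94-fold higher, and ATG101, 1.38-fold lower. The other 3 members, ULK2, MAP1LC3A and OPTN, stayed at or below 0.123 FPKM in every library and were not tested.

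**Figure D1:**
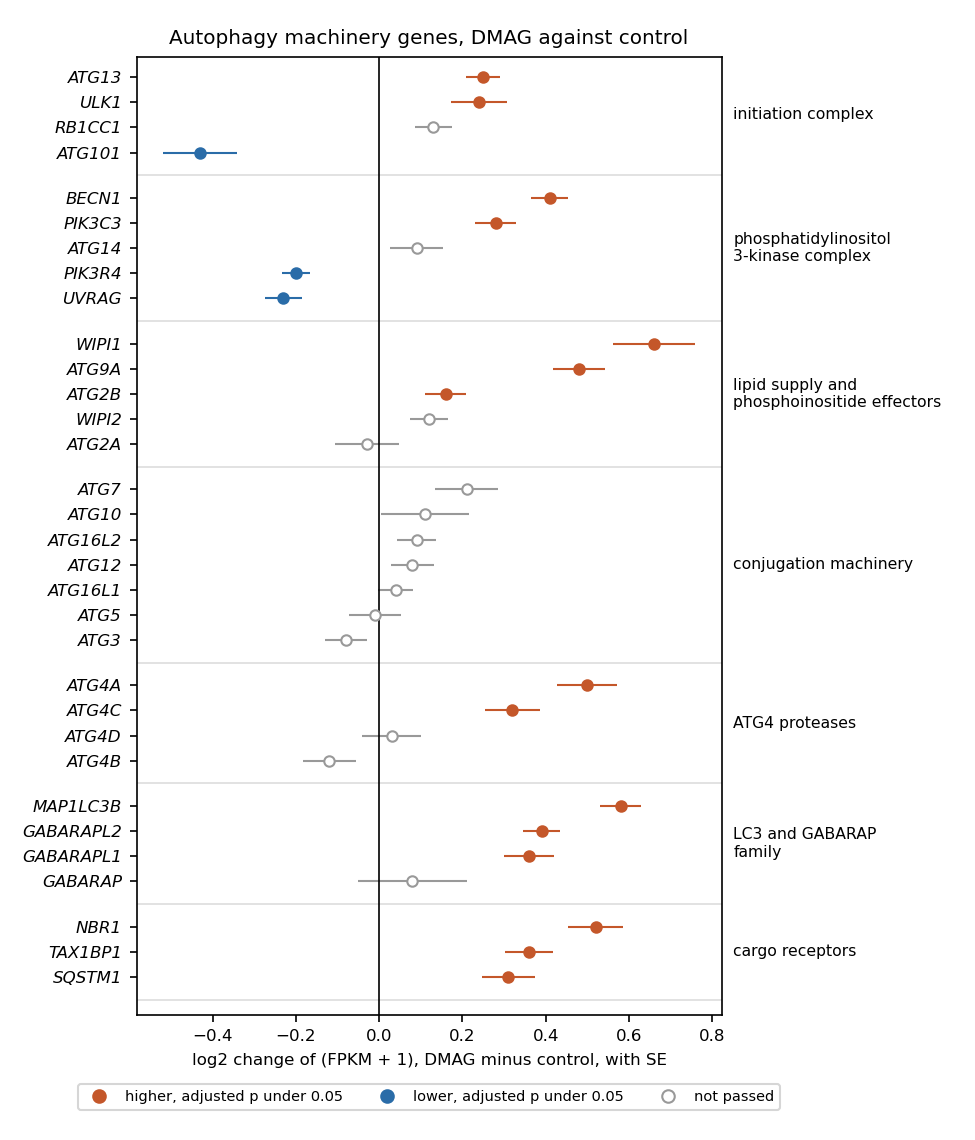
Log2 change of (FPKM + 1), DMAG minus control, with its standard error, for the 32 autophagy genes tested, by role. Filled points passed limma at an adjusted p under 0.05: 15 lie to the right of 0 and 3 to the left, and all 7 points of the conjugation machinery are open.

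Groups of 3 control and 3 DMAG values did not overlap for 17 members that were higher and 3 that were lower with DMAG. Over all genes tested the shares were 27.9% and 31.6%. The 2 members without overlap that did not pass were RB1CC1 (adjusted p = 0.051) and WIPI2 (adjusted p = 0.078). The deposited values sum to between 348907 and 357821 FPKM over the mRNA table in controls and between 328350.5 and 332916 FPKM with DMAG. When each library was rescaled to a sum of 1000000, with the filter and pseudocount kept, 11203 genes passed the filter. The median of all genes was then 0.09, and 3435 genes were higher and 1910 lower, against 2333 and 2717 as deposited. In that fit 20 members were higher and 1, ATG101, was lower.

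Promoters of the members were searched for short motifs bound by factors known to act on autophagy genes. The windows run from 250 bases before to 50 bases after the gene starts of RefSeq (GRCh38.p14), and 31 of 35 members had at least 1, with 38 windows in all. Both strands were read. CACGTG, the core letters bound by TFEB and TFE3 among many other factors, was in 2 member windows (5.26%) and in 7.26% of all 35116 windows. It reads the same on both strands. Its longer form, the CLEAR element, was in 0.353% of all windows and in no member window. TGATGNAA, of the kind bound by ATF4, was in 3.62% of all windows and in no member window. TGACNNNGC, of the kind bound by NRF2, was in 2 member windows (5.26%) and in 13.3% of all windows. No match says only that these letters are not in these windows.

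The 4 windows with a match before a RefSeq start are shown because they belong to members of unlike outcome. The start used for ATG101 lies inside the span that RefSeq gives for the gene. Each is 60 bases long, read 5′ to 3′ along the gene's strand, with the motif in capitals.
ATG3: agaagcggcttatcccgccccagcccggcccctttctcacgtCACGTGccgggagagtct
ATG14: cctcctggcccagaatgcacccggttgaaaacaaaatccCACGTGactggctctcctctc
MAP1LC3B: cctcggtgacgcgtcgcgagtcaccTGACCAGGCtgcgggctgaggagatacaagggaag
ATG101: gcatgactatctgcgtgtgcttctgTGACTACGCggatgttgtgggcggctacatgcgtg
They lie at chr3:112561963-112562022 (minus strand), chr14:55411831-55411890 (minus strand), chr16:87392265-87392324 (plus strand) and chr12:52069833-52069892 (plus strand), in the same order. The genes with CACGTG, ATG3 and ATG14, did not pass, while of the genes with TGACNNNGC, MAP1LC3B rose and ATG101 fell. None of the 15 members that rose had CACGTG in its window.

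The complex that starts autophagy joins the kinase ULK1 to the adaptor proteins ATG13, ATG101 and RB1CC1 (also called FIP200). Of its 4 tested genes 2 rose, 1 fell and 1 did not pass, and the members moved in opposite directions. ATG101 (ENSG00000123395, chr12:52065300-52077495), which binds and stabilises ATG13, was at 16.3, 17.4 and 15.5 FPKM in controls and at 10.4, 12.3 and 13.1 FPKM with DMAG. Every DMAG library lay below every control library, and the gene fell 1.38-fold (log2 change -0.43, SE 0.0890, adjusted p = 0.0084). Its partner ATG13 instead rose 1.20-fold, from 11.9 ± 0.198 to 14.4 ± 0.322 FPKM (adjusted p = 0.0034).

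ULK1 (ENSG00000177169, chr12:131894622-131923150) had 4.78, 4.61 and 4.98 FPKM in the control libraries and 6.35, 5.53 and 5.61 FPKM with DMAG. The groups did not overlap and the gene was 1.22-fold higher (log2 change 0.24, SE 0.0672, adjusted p = 0.028). This call was lost without control replicate 1 or 2 or DMAG replicate 1 (adjusted p = 0.066, 0.083 and 0.071), and held without each of the other 3 libraries. RB1CC1 was at 12.4 ± 0.182 FPKM in controls and 13.7 ± 0.525 FPKM with DMAG and did not pass (adjusted p = 0.051). It passed as higher with a pseudocount of 0.1, a filter at a mean of 1 FPKM, either scaling, or the most abundant transcript. The related kinase ULK2 was listed at 0 in the 3 controls and at most at 0.0188 FPKM with DMAG.

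The lipid kinase PIK3C3 (also called VPS34) makes the phosphoinositide that marks the growing membrane, with PIK3R4 as its regulatory subunit and BECN1 as the shared scaffold. ATG14 directs the complex to autophagosome formation, and UVRAG, which takes its place, to endosomes and later steps. Here the kinase and scaffold genes rose while those of PIK3R4 and UVRAG fell. BECN1 (ENSG00000126581, chr17:42810132-42824282) was at 30.3, 30.5 and 28.3 FPKM in controls and at 39.8, 40.9 and 38.5 FPKM with DMAG, 1.34-fold higher (log2 change 0.41, SE 0.0448, adjusted p = 7.1e-04). PIK3C3 rose 1.22-fold, from 31.9 ± 0.599 to 39.0 ± 2.23 FPKM (adjusted p = 0.0047).

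In the same complexes PIK3R4 went from 23.6 ± 0.182 to 20.5 ± 0.337 FPKM, 1.15-fold lower (adjusted p = 0.0044). UVRAG went from 13.8 ± 0.355 to 11.7 ± 0.303 FPKM, 1.19-fold lower (adjusted p = 0.0063). Both falls were lost when libraries were rescaled to a sum of 1000000 (adjusted p = 0.077 and 0.055). ATG14 had 5.59 ± 0.109 FPKM in controls and 6.04 ± 0.438 FPKM with DMAG (adjusted p = 0.27), and its groups overlapped.

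Proteins that bring lipid to the membrane and bind its phosphoinositide came next in the pathway, and 3 of these 5 genes rose while none fell. WIPI1 (ENSG00000070540, chr17:68421281-68457496), a phosphoinositide-binding protein, was at 1.64, 1.80 and 1.24 FPKM in controls and at 3.15, 3.07 and 2.85 FPKM with DMAG. It was the tested member with the lowest level in both groups and had the largest change, 1.94-fold (log2 change 0.66, SE 0.0985, adjusted p = 0.0024). Its relative WIPI2, at 30.3 ± 0.560 FPKM in controls, was at 33.0 ± 1.60 FPKM with DMAG and did not pass. ATG9A (ENSG00000198925, chr2:219219380-219229636), the membrane-spanning scramblase of the pathway, had 7.38, 8.02 and 8.58 FPKM in controls and 11.6, 11.2 and 11.8 FPKM with DMAG. All DMAG libraries were above the controls, by 1.44-fold on average (log2 change 0.48, SE 0.0625, adjusted p = 0.0014).

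The lipid transfer protein ATG2 is encoded by a pair of genes. ATG2B was 1.13-fold higher (8.25 ± 0.254 to 9.36 ± 0.319 FPKM, adjusted p = 0.035). That call was lost when any 1 of the 6 libraries was left out (adjusted p between 0.056 and 0.1). ATG2A was at 8.19 ± 0.797 and 7.97 ± 0.362 FPKM and did not pass (adjusted p = 0.76).

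The conjugation machinery had no member that passed. It comprises the E1-like enzyme ATG7, the E2-like enzymes ATG3 and ATG10, the ubiquitin-like ATG12, its acceptor ATG5 and the scaffolds ATG16L1 and ATG16L2. Of the 7 genes 0 rose and 0 fell in limma, with 1 (ATG7) under an unadjusted p of 0.05. Their log2 changes ran from -0.08 to 0.21, with a median of 0.08. ATG5 (ENSG00000057663, chr6:106184476-106325760) was at 20.0, 17.9 and 20.8 FPKM in controls and at 19.7, 19.9 and 18.7 FPKM with DMAG. The groups lay on top of each other (log2 change -0.01, SE 0.0628, adjusted p = 0.94).

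ATG3, with the second highest level of the members in controls, had 51.1 ± 1.24 FPKM there and 48.3 ± 2.83 FPKM with DMAG. ATG7 had 39.1, 33.6 and 32.8 FPKM in controls and 38.6, 41.6 and 42.1 FPKM with DMAG, so that only control replicate 1 reached the DMAG values (adjusted p = 0.06). Without that library ATG7 passed, with a log2 change of 0.29 (adjusted p = 0.0095). ATG12 was at 6.83 ± 0.169 and 7.28 ± 0.286 FPKM, ATG16L1 at 13.9 ± 0.446 and 14.2 ± 0.0935 FPKM, and ATG16L2 at 16.9 ± 0.509 and 18.1 ± 0.711 FPKM. ATG10 was the lowest of the 7, at 3.14 ± 0.215 and 3.49 ± 0.566 FPKM. With libraries rescaled to a sum of 1000000, ATG7, ATG12 and ATG16L2 passed as higher, with log2 changes of 0.31, 0.18 and 0.20. The median of all genes was 0.09 in that fit, and 3435 of 11203 genes were higher. ATG7 also passed when libraries were scaled to the same median, where 2494 of 10394 genes were higher.

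The ATG4 proteases trim LC3 and GABARAP proteins before conjugation and release them from membranes afterwards, and 2 of the 4 genes rose. ATG4A (ENSG00000101844, chrX:108088829-108154671), known to favour GABARAP proteins, was at 5.67, 5.20 and 6.08 FPKM in controls and at 8.46, 8.90 and 7.88 FPKM with DMAG. The groups were well apart, at 1.49-fold (log2 change 0.50, SE 0.0721, adjusted p = 0.0021). ATG4C (ENSG00000125703, chr1:62784132-62865516) had 8.41, 8.52 and 7.81 FPKM in controls and 10.2, 9.93 and 11.4 FPKM with DMAG. It was 1.28-fold higher (log2 change 0.32, SE 0.0664, adjusted p = 0.0091).

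ATG4B, the protease of widest substrate range, had the highest level of the 4, with 30.2 ± 1.95 FPKM in controls and 27.6 ± 1.61 FPKM with DMAG. Its groups overlapped and the gene did not pass (adjusted p = 0.16). ATG4D was at 13.8 ± 0.880 and 14.1 ± 1.05 FPKM (adjusted p = 0.77).

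The LC3 and GABARAP family coats the membrane and is the docking site of cargo receptors. Of its 4 tested genes 3 rose and none fell. MAP1LC3B (ENSG00000140941, chr16:87392336-87404774), the LC3 gene most used as an autophagosome marker, was at 12.9, 12.2 and 13.3 FPKM in controls and at 20.0, 19.9 and 18.9 FPKM with DMAG. The DMAG libraries were tightly grouped above the controls, at 1.53-fold (log2 change 0.58, SE 0.0489, adjusted p = 2.8e-04). A near-identical gene, MAP1LC3B2, can share its reads. It had 1.53 ± 0.524 and 1.77 ± 0.211 FPKM and did not pass.

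GABARAPL2 (ENSG00000034713, chr16:75566379-75577881) was the most abundant of the family, at 40.2, 38.2 and 41.2 FPKM in controls and 50.4, 53.7 and 53.6 FPKM with DMAG. It rose 1.32-fold (log2 change 0.39, SE 0.0447, adjusted p = 8.5e-04). GABARAPL1 (ENSG00000139112, chr12:10212877-10223128) had 9.36, 9.02 and 9.85 FPKM in controls and 13.1, 11.7 and 12.3 FPKM with DMAG, 1.31-fold higher (log2 change 0.36, SE 0.0596, adjusted p = 0.0037). Neither gene's groups overlapped. GABARAP itself had 25.6, 20.5 and 25.2 FPKM in controls and 27.1, 20.9 and 27.5 FPKM with DMAG. Its replicate 2 was the lowest library in both groups, and the gene did not pass (adjusted p = 0.66).

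Over the family the summed level went from 85.9 ± 5.09 to 109.7 ± 3.13 FPKM, 1.28-fold. MAP1LC3B made up 14.9% ± 0.292 of that sum in controls and 17.9% ± 0.966 with DMAG, and GABARAP 27.6% ± 1.76 and 22.9% ± 2.82. GABARAPL2 held 46.5% ± 1.11 and 47.9% ± 2.54. MAP1LC3A was listed at 0 in 3 of the 6 libraries and reached at most 0.0954 FPKM, in control replicate 2.

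**Figure D2:**
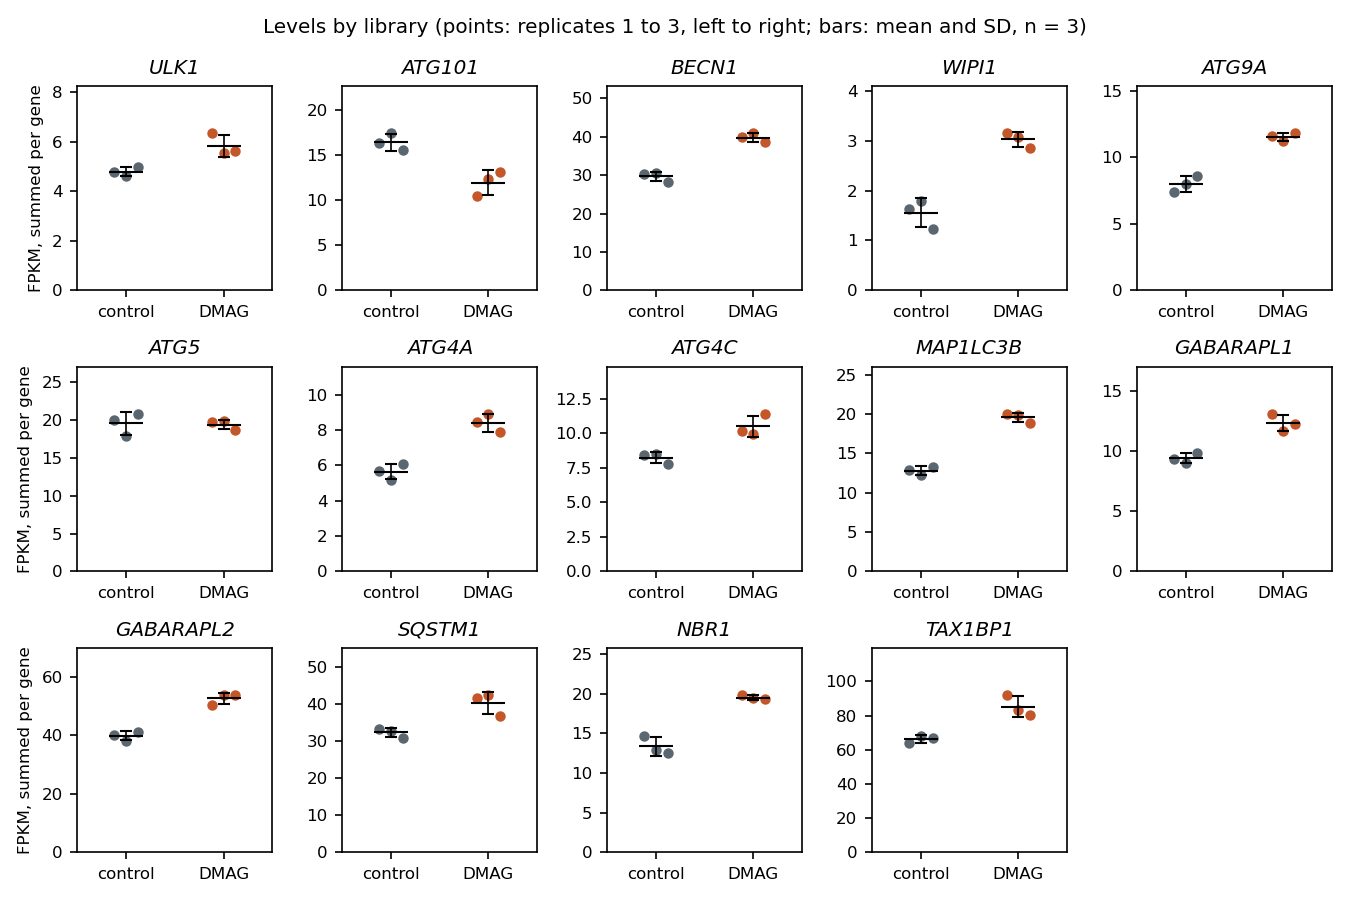
FPKM per library for 14 autophagy genes, with control libraries in grey and DMAG libraries in orange, and the mean and SD (n = 3) as bars; each axis starts at 0. The groups are apart in 13 panels, with ATG101 lower and 12 genes higher with DMAG, and overlap for ATG5.

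Cargo receptors bind ubiquitinated or other marked cargo and LC3 or GABARAP proteins at the same time. All 3 tested receptor genes rose. TAX1BP1 (ENSG00000106052, chr7:27739373-27829767), a receptor for protein aggregates and bacteria, had the highest level of all members in both groups. It was at 63.8, 68.2 and 67.0 FPKM in controls and at 91.9, 83.2 and 80.6 FPKM with DMAG, 1.28-fold higher (log2 change 0.36, SE 0.0576, adjusted p = 0.0033). NBR1 (ENSG00000188554, chr17:43170409-43211688), which gathers ubiquitinated proteins, was at 14.7, 12.9 and 12.5 FPKM in controls and at 19.8, 19.4 and 19.3 FPKM with DMAG. It rose 1.46-fold, with the DMAG libraries closer together than the controls (log2 change 0.52, SE 0.0656, adjusted p = 0.0013).

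SQSTM1 (ENSG00000161011, chr5:179806393-179838078) encodes p62, a receptor that is itself digested by autophagy and also acts in NRF2 signalling. It was at 33.3, 32.6 and 30.9 FPKM in controls and at 41.5, 42.3 and 36.7 FPKM with DMAG. All DMAG libraries were higher, by 1.24-fold on average (log2 change 0.31, SE 0.0636, adjusted p = 0.0089). OPTN, the mitophagy and bacterial receptor optineurin, was listed at 0 in 4 libraries and reached 0.123 FPKM in DMAG replicate 3.

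The table gives FPKM per transcript, which allowed isoforms to be followed. The members had 213 transcripts, of which 93 averaged at least 0.5 FPKM, and of these 7 rose, 1 fell and 85 did not pass. Among all 26969 transcripts tested, 4.58% rose and 5.70% fell, 10.3% in either direction. For MAP1LC3B, GABARAPL2 and NBR1 a single transcript carried most of the level and rose by itself. The MAP1LC3B transcript ENST00000268607 had a log2 change of 0.61 (adjusted p = 0.0031), GABARAPL2 ENST00000037243 of 0.42 (adjusted p = 0.005) and NBR1 ENST00000341165 of 0.50 (adjusted p = 0.0063). The main WIPI1 transcript ENST00000262139 also rose (log2 change 0.67, adjusted p = 0.029), a call lost when any 1 library was left out (adjusted p between 0.07 and 0.095).

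Of the 8 member transcripts that passed, that of ATG4B had a sign opposite to its gene's sum, which did not pass. ENST00000404914 had 13.9, 14.5 and 15.5 FPKM in controls and 18.9, 18.7 and 20.1 FPKM with DMAG (log2 change 0.37, adjusted p = 0.021). Its other 9 transcripts together were lower with DMAG in the plot of FPKM by transcript, so the sum did not rise. The call for ENST00000404914 was lost without each library except control replicate 3 (adjusted p between 0.059 and 0.075).

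BECN1 and TAX1BP1 showed sums that were steadier than their transcripts. The main BECN1 transcript ENST00000361523 was at 13.0, 15.0 and 16.4 FPKM in controls and at 7.14, 7.12 and 16.8 FPKM with DMAG, and did not pass (log2 change -0.58, adjusted p = 0.38). Without DMAG replicate 3 it was lower (log2 change -0.95, adjusted p = 0.023). Transcript ENST00000590099, chosen after its values were seen, was at 5.22, 3.40 and 2.30 FPKM in controls and at 22.6, 22.3 and 7.15 FPKM with DMAG (adjusted p = 0.084). The transcripts that held most of the BECN1 level differed between the DMAG libraries, while the sum of all its transcripts varied little within a group. On the means, ENST00000590099 went from 3.64 ± 1.48 to 17.4 ± 8.84 FPKM, and the sum from 29.7 ± 1.23 to 39.7 ± 1.21 FPKM. The step of this transcript was the larger, so the rise of the mean sum depended on its estimate, and it did not pass itself.

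Main transcripts of the other fully described members did not pass among transcripts. ENST00000321867, the ULK1 transcript that held all of its level, had an adjusted p of 0.17 there. ENST00000336854 of ATG101 went from 15.8 ± 0.908 to 11.1 ± 1.49 FPKM (log2 change -0.48, adjusted p = 0.057), and ENST00000409618 of ATG9A from 3.92 ± 0.391 to 7.40 ± 1.96 FPKM (log2 change 0.75, adjusted p = 0.067). ENST00000372232 of ATG4A was at 8.44 and 8.87 FPKM in DMAG replicates 1 and 2 but at 5.20 FPKM in replicate 3, within the control range of 5.17 to 5.64 FPKM. It passed without replicate 3 (log2 change 0.60, adjusted p = 0.032). ENST00000317868 of ATG4C ranged from 4.03 to 7.43 FPKM in controls and from 3.05 to 8.62 FPKM with DMAG. Log2 changes were 0.29 for ENST00000266458 of GABARAPL1, 0.35 for ENST00000360718 of SQSTM1 and -0.07 for ENST00000635758 of ATG5.

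For TAX1BP1 the main transcript ENST00000396319 had 43.5, 49.1 and 46.9 FPKM in controls and 57.6, 71.7 and 57.3 FPKM with DMAG (adjusted p = 0.079). Its second transcript, ENST00000433216, ranged from 1.20 to 12.7 FPKM among controls and from 0 to 24.7 FPKM with DMAG. Over the 32 tested members the coefficient of variation within a group had a median of 4.03% in controls and 4.77% with DMAG for gene sums. For the most abundant transcripts it was 7.11% in controls and 6.40% with DMAG. When the most abundant transcript stood in for each gene, 8 members were higher and 3 lower, against 15 and 3 by the sum. Shares over all genes are not given for that fit, so these counts cannot be set against them. The 6 that were higher by both measures were WIPI1, ATG9A, MAP1LC3B, GABARAPL2, NBR1 and TAX1BP1. The calls of ULK1, ATG13, BECN1, PIK3C3, ATG2B, ATG4A, ATG4C, GABARAPL1 and SQSTM1 were lost, and RB1CC1 and ATG4B were gained.

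**Figure D3:**
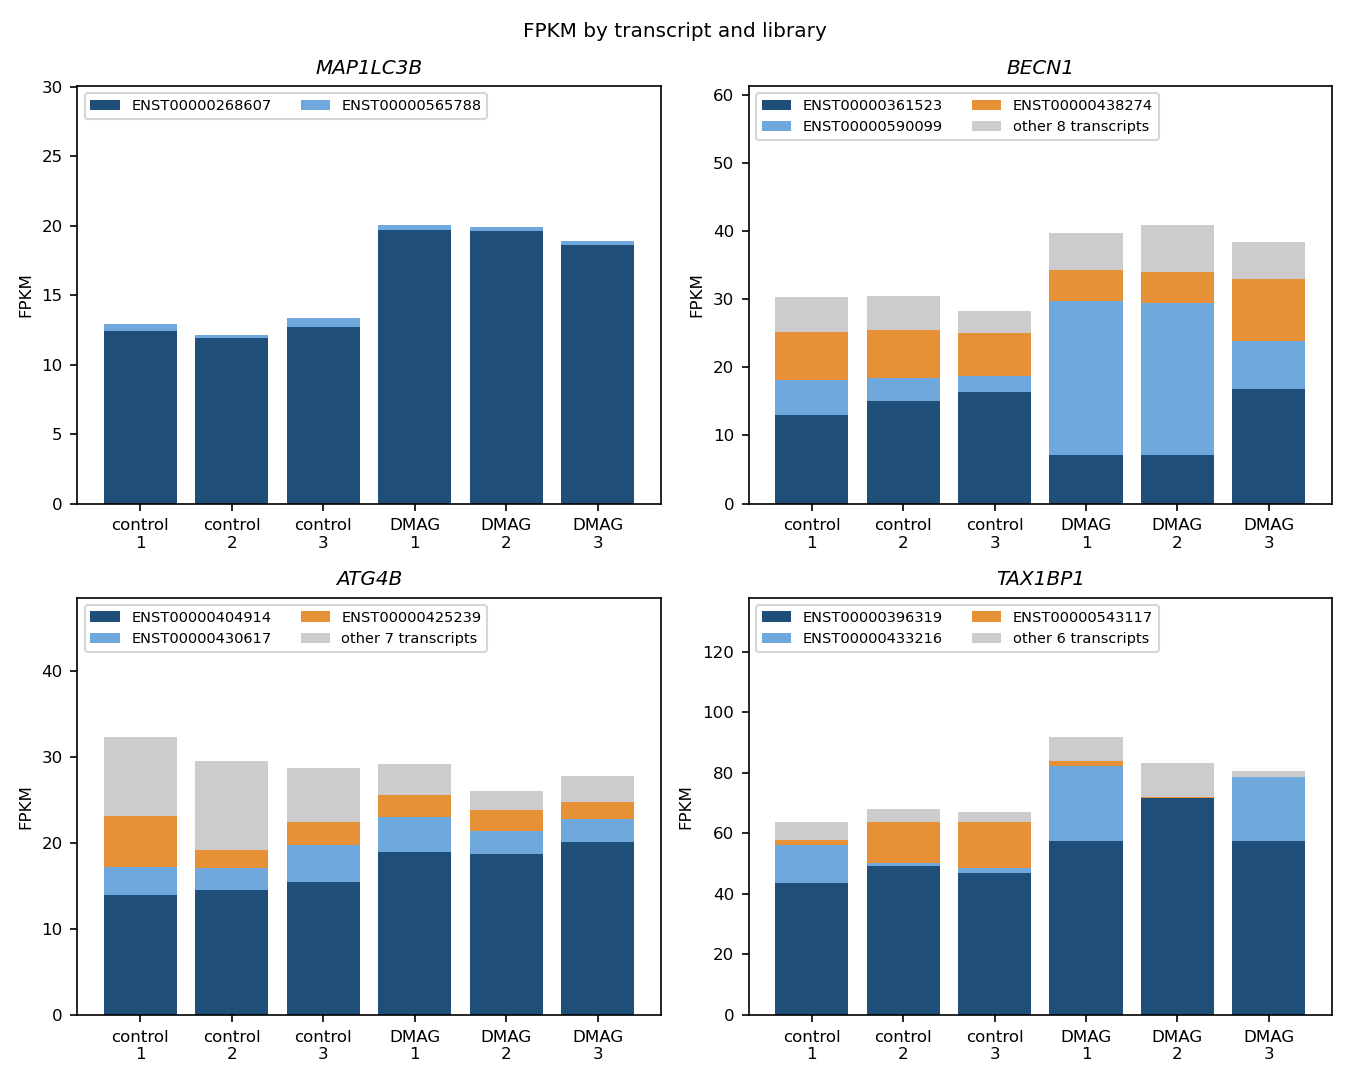
FPKM stacked by transcript in each library for MAP1LC3B, BECN1, ATG4B and TAX1BP1; the 3 most abundant transcripts are coloured and the others are grey. MAP1LC3B is nearly all 1 transcript, BECN1 DMAG replicates 1 and 2 are mostly ENST00000590099, and the dark blue ATG4B transcript is taller with DMAG while the bar is not.

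Genes next to the core machinery were read from 5 further lists. Of 21 other core and regulator genes 17 were tested, and 10 rose, none fell and 7 did not pass, with a median log2 change of 0.23. The share that rose was 58.8%, against 22.4% over all genes, of which 26.1% fell. The 4 with the smallest p were SH3GLB1, a membrane-bending partner of BECN1 complexes (1.32-fold), ULK3, a kinase related to ULK1 (1.44-fold), the GTPase RAB33B, which binds ATG16L1 (1.51-fold), and TP53INP2, which shuttles LC3 (2.21-fold). TP53INP2 was near the level of the filter, at 0.751 ± 0.121 FPKM in controls and 1.66 ± 0.176 FPKM with DMAG. Between 7 and 10 of this list were higher when 1 library was left out. By the most abundant transcript 6 were higher, and the share over all genes is not given for that fit. SH3GLB1 did not pass in it (adjusted p = 0.72).

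Of 22 other selective receptors and mitophagy genes 21 were tested, and 7 rose, 3 fell and 11 did not pass. That is 33.3% higher and 14.3% lower, against 22.4% and 26.1% over all genes. PINK1, the kinase that flags damaged mitochondria, was at 8.49, 7.87 and 7.46 FPKM in controls and at 17.7, 15.5 and 16.1 FPKM with DMAG, 2.07-fold higher (adjusted p = 1.7e-04). ATL3, a receptor for endoplasmic reticulum tubules, rose 1.37-fold. The mitophagy receptor BNIP3 fell 1.51-fold, from 12.2 ± 0.352 to 8.12 ± 0.292 FPKM, and the inner-membrane protein PHB2 fell 1.91-fold, from 145 ± 6.81 to 75.7 ± 7.19 FPKM. By its most abundant transcript PHB2 did not pass (adjusted p = 0.52). The mitophagy genes of the list went both ways.

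Of 23 genes for fusion of autophagosomes with lysosomes 8 rose, 3 fell and 12 did not pass. That is 34.8% higher and 13.0% lower, against 22.4% and 26.1% over all genes. The tethers EPG5 (1.35-fold) and TECPR1 (1.70-fold) and the SNARE gene SNAP29 (1.26-fold) were higher. VAMP8, the lysosomal SNARE that pairs with it, was 1.24-fold lower, from 171 ± 3.22 to 138 ± 5.81 FPKM. EPG5 did not pass by its most abundant transcript (adjusted p = 0.55). Without DMAG replicate 1 or 3 there were 5 higher, and without control replicate 2 or 3 or DMAG replicate 3 there was 1 lower. 

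Upstream, MTORC1 is the nutrient-sensing kinase complex that holds autophagy in check and AMPK is the energy-sensing kinase that favours it. Of 30 such genes 28 were tested, and 8 fell, 1 rose and 19 did not pass, with a median log2 change of -0.10. The share that fell, 28.6%, was near the 26.1% over all genes, and the share that rose was 3.57%, against 22.4%. MLST8, a shared subunit of the MTOR complexes, fell 2.58-fold, from 26.0 ± 1.91 to 10.1 ± 0.820 FPKM, and RPTOR, the subunit that defines MTORC1, fell 1.31-fold. None of the inhibitors of MTORC1 on the list passed as higher. DDIT4 went from 71.0 ± 2.15 to 29.2 ± 1.18 FPKM (2.43-fold) and SESN2 from 14.8 ± 0.303 to 7.21 ± 0.335 FPKM (2.05-fold), and both fell. TSC1, TSC2, DEPTOR, AKT1S1, SESN1 and SESN3 did not pass, with log2 changes between -0.24 for AKT1S1 and 0.24 for TSC1. With libraries rescaled to a sum of 1000000, 6 of the list were lower and 4 higher. In that fit 1910 of all 11203 genes tested were lower and 3435 higher. As deposited, 0 of the list were higher without control replicate 1 or 3 or DMAG replicate 1, and 2 without DMAG replicate 2. In each of these cases 6 to 8 were lower. The fall of MLST8 did not pass by its most abundant transcript (adjusted p = 0.094).

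Among 15 genes of transcription factors known to act on autophagy genes and their regulators, 12 were tested, and 2 rose, 3 fell and 7 did not pass. The shares, 16.7% higher and 25.0% lower, were not above the 22.4% and 26.1% over all genes. TFE3, which turns on lysosomal and autophagy genes, rose from 2.71 ± 0.115 to 4.49 ± 0.241 FPKM, 1.66-fold (adjusted p = 7.0e-04). Its relative TFEB, named after its values were seen, averaged under 0.5 FPKM and was not tested. It was at 0.352, 0.221 and 0.145 FPKM in controls and at 0.848, 0.530 and 0.867 FPKM with DMAG. In the fit with no filter on low values it passed (adjusted p = 0.013). The stress-response factors ATF4 (1.56-fold), DDIT3 (1.97-fold) and NFE2L2, which encodes NRF2 (1.34-fold), fell. Without control replicate 1, where 13 of this list reached the filter, there were 3 higher. Without DMAG replicate 1 or 2 there was 1 higher of 12 tested, with 3 lower in all of these fits.

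**Figure D4:**
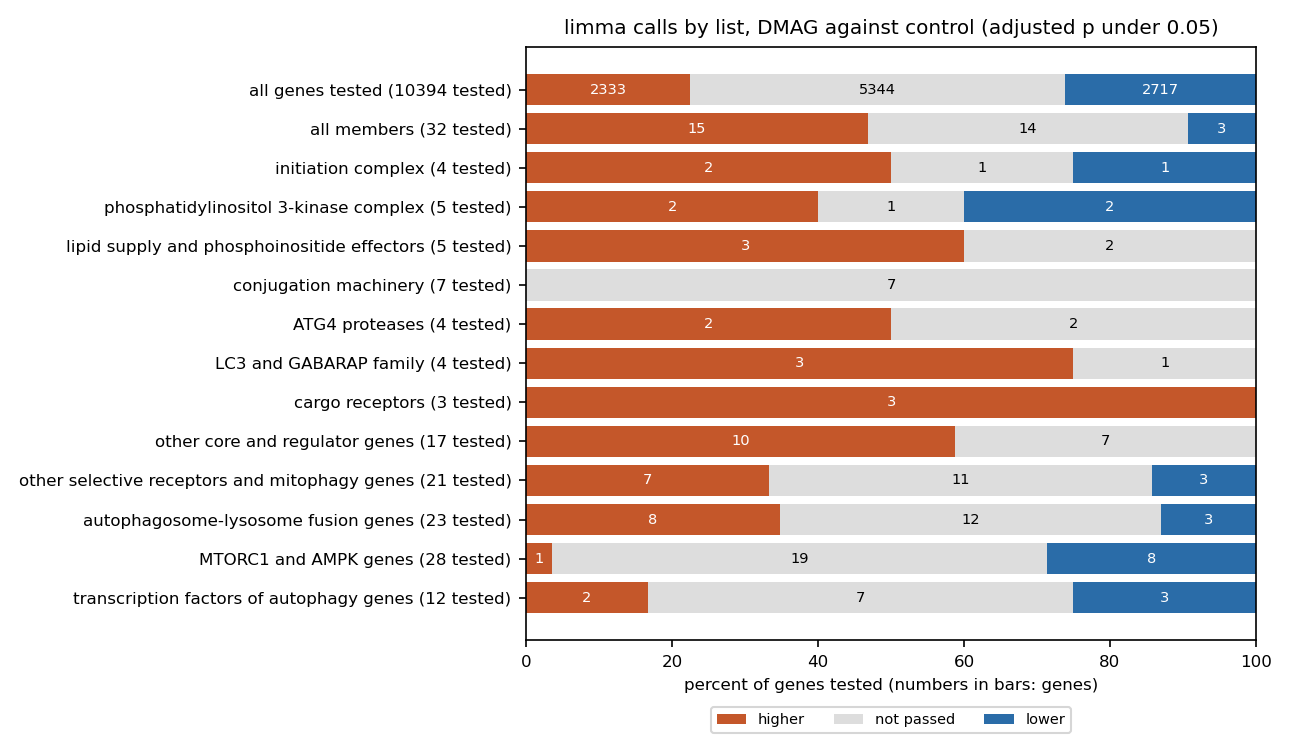
Share of tested genes that were higher, lower or did not pass with DMAG (limma, adjusted p under 0.05), for all genes, the autophagy members by role and 5 further lists; numbers in the bars are genes. Members had 15 higher and 3 lower of 32. MTORC1 and AMPK genes had 1 higher and 8 lower of 28, a share lower (28.6%) near that of all genes (26.1%).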

How the data were processed

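The authors deposited FPKM values per transcript for mRNAs. HISAT2 2.0.4, StringTie 1.3.3, Bowtie and the build GRCh38 are listed, without roles, in the submitters' processing notes. Which annotation release served is not given in the sources used here. Per the labels' protocols, the libraries carried a dUTP step in the second strand. FPKM does not show how many reads lie behind it, so depth is unknown and no counting interval is given. FPKM splits reads among the isoforms of a gene by estimate, and a sum over isoforms is less dependent on that split.

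From these values, transcripts were summed per gene and log2(FPKM + 1) was fitted with limma 3.58.1 (R 4.3.3, mean trend, two-sided) over all genes that averaged 0.5 FPKM or more. Transcripts were fitted alike in a separate fit. This scale understates the change of low genes. P-values were adjusted by Benjamini-Hochberg over the whole table. Fold changes are ratios of FPKM means. Nothing in the labels ties the samples to separate cultures, and the spread behind each p-value may be technical. On simulated data with the spread of the 10394 genes, 200 genes were changed. The fit called 69% of genes changed by a log2 of 0.5 and 88% of those changed by 1, and 5.42% of its calls were false. In the data 48.6% of genes passed, a far larger share than was changed in the simulation, so these rates may not hold there.

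Members and lists were chosen with earlier results of these data known. Values in every library are given for members that passed with a fold of at least 1.25 and for ULK1, BECN1, ATG5, MAP1LC3B and SQSTM1. Of each further list up to 4 genes with the smallest p are named. MAP1LC3B2, ATG7, GABARAP and TFEB are described in addition. Gene positions and promoters are RefSeq's (GRCh38.p14). Alternatives were another pseudocount, other filters, 2 scalings, no trend, a replicate block, the most abundant transcript and each library left out in turn. The lncRNA, circular RNA and small RNA tables were not used here, since none names a member.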

Additional observations from a re-analysis of the deposited data

How the results depend on the processing

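Of the 15 members that rose, 13 were higher in each of 13 alternatives that sum transcripts, the exceptions being ULK1 and ATG2B, and of the 3 that fell, ATG101 was lower in each. The most abundant transcript in place of the sum gave 8 members higher, and the share over all genes in that fit is not given. Its log2 changes were -0.58 for BECN1, -0.04 for ATG4C, 0.42 for ATG2A and 0.37 for ATG4B, each opposite in sign to the sum. Rescaling to a sum of 1000000, which took in more genes and transcripts at the same filter, left 1 member lower and 986 transcripts lower, and gave 0.06 for ATG2A, 0.02 for ATG3, 0.09 for ATG5, 0.02 for ENST00000635758 and 0.04 for ENST00000317868. Scaling to the same median gave 0.01 for ATG5. With a replicate block, 13 members were higher and 3 lower, and 2053 genes were higher and 2438 lower. Over transcripts the replicate block left 200 calls, 87 higher and 113 lower, against 2774 without it. The cause of these moves was not tested. Replicate numbers were not taken to pair the samples: same-numbered libraries correlated in their deviations by -0.0048 to 0.0426, and 1 of the 3 control libraries deviated most like a DMAG library of another number. With each library left out in turn, transcript calls ranged from 1510 to 1936, with 620 to 850 higher and 848 to 1086 lower. Of the 10357 to 10404 genes tested in those fits, 1903 to 2150 were higher and 2303 to 2443 lower. The log2 change then ran from -0.10 to 0.02 for ATG2A, from -0.07 to 0.04 for ATG5, from -0.01 to 0.09 for ATG4D, from -0.02 to 0.20 for GABARAP and from -0.40 to 0.23 for ENST00000317868. None of these 5 passed.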

Other observations

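Genes whose products work as partners were set against each other, since FPKM is scaled to length. These ratios were chosen after the values were seen. The level of ATG13 relative to ATG101 was 0.728, 0.701 and 0.763 in the control libraries and 1.37, 1.16 and 1.13 with DMAG, so ATG13 mRNA was below that of its partner in each control and above it in each DMAG library. BECN1 relative to UVRAG went from 2.14 ± 0.0370 to 3.40 ± 0.0772, and relative to ATG14 from 5.31 ± 0.155 to 6.61 ± 0.653. PIK3C3 relative to PIK3R4 went from 1.35 ± 0.0321 to 1.90 ± 0.0909. For each of these 4 ratios the groups did not overlap. In all but BECN1 to ATG14 this had to be so, since each gene's own groups lay apart, in opposite directions. A two-sided exact permutation test gave 0.1 for each ratio, the smallest p that 3 against 3 libraries allow. That p adds nothing to the lack of overlap, and how often other gene pairs separate was not tested.

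Levels of the 32 tested members spread from WIPI1 to TAX1BP1 in both groups, from 1.56 ± 0.291 to 66.3 ± 2.31 FPKM in controls and from 3.02 ± 0.157 to 85.2 ± 5.92 FPKM with DMAG. BECN1 moved from place 9 to place 6 in the order of levels, NBR1 from 18 to 13 and MAP1LC3B from 19 to 12, while ATG101 moved from 14 to 21 and UVRAG from 16 to 22. In controls several neighbours in this order did not differ beyond their spread, among them WIPI2, ATG4B and BECN1, at 30.3 ± 0.560, 30.2 ± 1.95 and 29.7 ± 1.23 FPKM. The same held with DMAG for SQSTM1, BECN1 and PIK3C3, at 40.2 ± 3.04, 39.7 ± 1.21 and 39.0 ± 2.23 FPKM. It also held for MAP1LC3B, NBR1 and ATG5, at 19.6 ± 0.622, 19.5 ± 0.281 and 19.4 ± 0.667 FPKM, so exact places are uncertain.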
